A study of Mus musculus with 21 samples.

Results

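Siglecs are cell-surface lectins that read sialic acid, the sugar that caps most glycans on vertebrate cells. The 7 Siglec receptor genes described here, Siglech, Cd33, Siglec1, Siglece, Siglecf, Siglecg and Cd22, were taken from the count table by matching their Ensembl identifiers to these symbols, and all 7 were found among 55487 listed genes. They were measured by bulk RNA-seq in sorted striatal microglia of male mice aged 8 to 10 weeks. Offspring of mothers with immune activation during pregnancy (MIA) and control offspring (CON) were injected with lipopolysaccharide (LPS), which comes from the outer membrane of bacteria, at 4500 endotoxin units per gram into the peritoneum, or with saline, and cells were taken 18 hours later. The labels state neither the agent that the mothers received nor the mouse strain. The groups are MIA LPS (4 libraries), control LPS (5), MIA saline (5) and control saline (6), and a further MIA saline library that the submitters titled excluded was left out. MIA LPS replicate 4 is the single library of batch 2 in the labels, so every test rests on 19 batch 1 libraries, 3 of them MIA LPS. The sort kept live cells that stained for CD11b and P2RY12 and were low in CD45, so cells that had lost surface P2RY12 were not collected. Each library has its own ID in the labels, which do not say that it is 1 animal, so the p-values measure the spread between these libraries. A number within the ID is shared by up to 3 libraries of 1 maternal group, with 10 such numbers over the 20 libraries; the labels do not say what it marks, and the tests treat those libraries as independent.

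Most Siglecs carry cytosolic tyrosine motifs that recruit phosphatases and dampen activation, while others lack such motifs and pair with the activating adaptor DAP12, the product of Tyrobp. In the mouse, Siglec-H and CD33 are of the DAP12-pairing kind, and Siglec-H is used as a microglial marker in brain. Siglec-E, Siglec-F, Siglec-G and CD22 carry the inhibitory motifs. Sialoadhesin, encoded by Siglec1, is a long adhesion receptor of macrophages that is known as an interferon-responsive gene.

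The genes lie in 4 places of the GENCODE M21 annotation of GRCm38, which serves for positions here because the labels do not state the authors' build. Siglecf (chr7:43351341-43359531, plus strand), Siglecg (chr7:43408204-43418358, plus), Cd33 (chr7:43524216-43544428, minus) and Siglece (chr7:43651070-43660161, minus) lie within 309 kb of chromosome 7. Cd22 (chr7:30865402-30880342, minus) and Siglech (chr7:55768178-55778925, plus) stand apart on the same chromosome, and Siglec1 lies on chromosome 2 (chr2:131069220-131086765, minus). RefSeq promoter windows on GRCm38.p6 were matched for 6 of the 7 genes and searched on both strands for 5 motifs, of which only PU.1 and C/EBP had a match in any of them. Siglec1 has no window in that table. The 250 bases before the RefSeq start are shown for the 3 most highly expressed of the genes that changed with LPS and have a window, since Cd33 and Siglece rose and Siglech fell; capitals mark the motif matches.
Siglech (chr7:55767934-55768183, plus): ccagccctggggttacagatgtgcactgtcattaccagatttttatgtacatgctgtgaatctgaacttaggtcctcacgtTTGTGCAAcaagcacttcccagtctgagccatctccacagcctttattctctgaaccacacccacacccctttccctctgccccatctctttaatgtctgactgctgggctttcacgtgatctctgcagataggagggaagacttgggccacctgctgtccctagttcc
Cd33 (chr7:43533172-43533421, minus): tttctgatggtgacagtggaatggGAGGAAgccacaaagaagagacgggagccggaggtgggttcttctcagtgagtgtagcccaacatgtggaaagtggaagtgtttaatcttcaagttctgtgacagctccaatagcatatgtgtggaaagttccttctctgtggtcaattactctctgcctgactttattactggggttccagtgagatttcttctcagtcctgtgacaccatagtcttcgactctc
Siglece (chr7:43660162-43660411, minus): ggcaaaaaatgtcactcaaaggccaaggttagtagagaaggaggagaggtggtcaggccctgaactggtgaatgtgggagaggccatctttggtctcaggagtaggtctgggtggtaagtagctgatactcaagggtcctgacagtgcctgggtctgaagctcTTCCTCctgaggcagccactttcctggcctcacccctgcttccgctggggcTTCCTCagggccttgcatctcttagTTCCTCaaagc
Siglech held 1 match to the C/EBP motif TTGCNNAA, starting 169 bases before its start and on the opposite strand, so printed as its reverse complement, and no other. Cd33 held 1 match to the PU.1 core GAGGAA at 226 bases, and Siglece held 3, at 87, 36 and 11 bases, each on the opposite strand and printed likewise. The Siglecf window held 1 PU.1 match at 65 bases. Siglecg has 2 windows, of which one held 2 PU.1 matches and the other none, and Cd22 had no match. Across 27025 genes with a window, 25.9% held the PU.1 core and 10.8% the C/EBP motif, so such matches are common among genes and are given as a description. The interferon response motif ISRE (3.46% of genes), the kappaB motif (8.23%) and the AP-1 motif TGANTCA (7.82%) were found in none of the windows of these genes.

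The batch 1 libraries held 9.85 M to 19 M assigned reads (M, mega), the batch 2 library 11.4 M and the library titled excluded 5.29 M. A single ribosomal RNA gene, CT010467.1, took 48% of the reads on average, so levels in CPM (counts scaled to a common library size by TMM factors) are lower for every gene by that share. Microglial markers other than Siglech summed to 3438 to 5162 CPM in MIA LPS, 3861 to 5127 CPM in control LPS, 12325 to 15008 CPM in MIA saline and 11116 to 15013 CPM in control saline libraries. P2ry12, used in the sort, averaged 188 CPM in control LPS and 1974 CPM in control saline libraries. Of the 10 listed microglial markers, 9 fell with LPS in both maternal groups, Siglech among them, and Sparc was not called. Of 7 monocyte markers tested 6 rose and 1, Ccr2, fell with LPS in both maternal groups, and of 9 neutrophil markers 9 rose in MIA and 7 in control offspring. The marker counts here and below stand beside the shares of all genes tested. With LPS 20.8% rose and 18.3% fell in MIA offspring, and 23.3% rose and 21.3% fell in control offspring. Monocyte markers summed to 37.7 to 82.5 CPM in the batch 1 LPS libraries, 125 CPM in the batch 2 library and 2.80 to 6.41 CPM in saline libraries. Neutrophil markers summed to 38.5 to 120.0 CPM in the batch 1 LPS libraries, 418 CPM in the batch 2 library and 0.155 to 19.6 CPM in saline libraries. The part of these cells in the Siglec results was not tested.

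All 7 genes passed the expression filter, Siglecg only through the saline libraries, where it is high, so its call is not independent of that filter. LPS changed the same number in both maternal groups: Cd33, Siglece and Siglec1 rose, Siglech, Siglecf and Siglecg fell, and Cd22 was not called. The calls are edgeR quasi-likelihood tests with a Benjamini-Hochberg adjusted p under 0.05 over the 14741 genes tested. In control offspring 6 of 7 Siglec genes were called, where 44.6% of all genes tested were; 3 rose, against 23.3% of all genes, and 3 fell, against 21.3%. In MIA offspring 6 of 7 were called again, against 39.1% of all genes, with 3 higher against 20.8% and 3 lower against 18.3%. Both comparisons have their own saline libraries and share none.

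**Figure D1:**
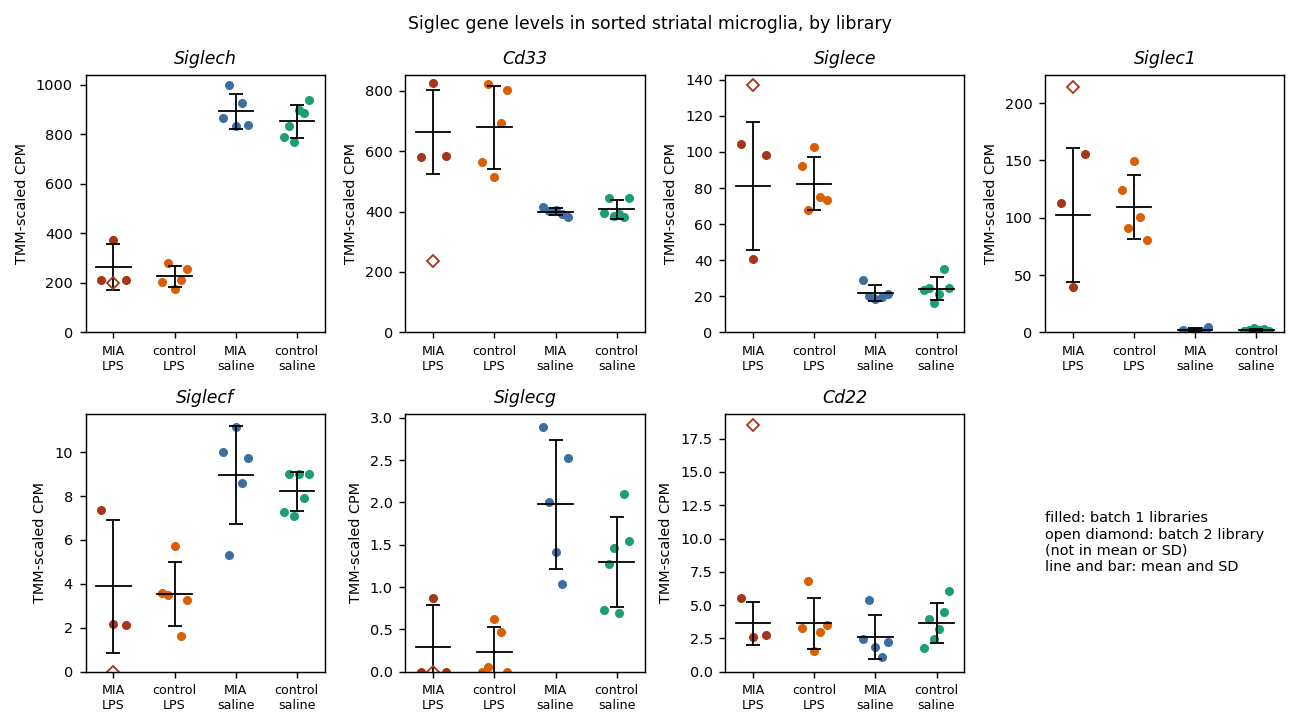
Levels of the 7 Siglec genes in each library, in TMM-scaled CPM (linear axis, each panel with its own scale starting at 0), by maternal group and treatment. Points are batch 1 libraries with their mean and SD, and open diamonds are the batch 2 library, which is in neither. The LPS points of Cd33, Siglece and Siglec1 lie above all saline points of the same maternal group and those of Siglech and Siglecg below, while those of Cd22 overlap.

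Siglech, the DAP12-paired microglial Siglec, had the highest level per kb of the family after saline and was lower in every LPS library. It stood at 210.4, 371 and 212 CPM in the 3 MIA LPS libraries of batch 1, against 867, 1000.4, 833, 926 and 838 CPM in MIA saline libraries. In control offspring it stood at 205, 282, 177, 213 and 256 CPM after LPS, against 790.0, 834, 769, 898, 888 and 941 CPM after saline. Every LPS library lay below every saline library, and MIA LPS replicate 2 was the highest of the LPS libraries. The log2 fold change was -1.75 ± 0.19 (SE) in MIA offspring (edgeR adjusted p = 3.78e-08) and -1.91 ± 0.15 in control offspring (edgeR adjusted p = 1.35e-10), which is 3.37-fold and 3.76-fold lower. In bulk RNA, fewer cells with the transcript and less transcript per cell cannot be told apart. Siglec-H also marks plasmacytoid dendritic cells, whose markers Klk1 and Ly6d had 0 counts in all 19 libraries. Over the whole list of 8 such markers the sums were 128 to 173 CPM in MIA LPS, 139 to 176 CPM in control LPS, 179 to 192 CPM in MIA saline and 162 to 191 CPM in control saline libraries. Of the 6 tested, 2 rose in both maternal groups (Bst2 and Cox6a2), and 1 fell in MIA and 2 in control offspring, Tcf4 in both; their part in the Siglech change was not tested.

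Cd33, whose human counterpart is known from genetic studies of Alzheimer's disease, rose with LPS by less than the other genes that rose, with a high level after saline as well. It stood at 582, 824 and 583 CPM in MIA LPS libraries, against 415, 403, 406, 391 and 383 CPM in MIA saline libraries. In control offspring it stood at 564, 822, 514, 694 and 802 CPM after LPS, against 395, 446, 384, 392, 381 and 446 CPM after saline. The groups did not overlap in either maternal group, and the SD after LPS was 138 CPM in control offspring, against 30.3 CPM after saline. The log2 fold change was 0.73 ± 0.15 in MIA offspring (edgeR adjusted p = 0.000449) and 0.74 ± 0.13 in control offspring (edgeR adjusted p = 4.22e-05), which is 1.66-fold and 1.67-fold higher. The batch 2 MIA LPS library went against this, with 235 CPM, below every saline library. Without the batch term, which lets that library into the mean, the log2 fold change in MIA offspring was 0.48 and was not called (edgeR adjusted p = 0.0922).

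Siglece, an inhibitory receptor known from mouse neutrophils, monocytes and microglia, rose with LPS. It stood at 105, 40.6 and 98.2 CPM in MIA LPS libraries, against 29.3, 19.9, 18.3, 19.5 and 21.2 CPM in MIA saline libraries. In control offspring it stood at 91.9, 67.9, 103, 75.2 and 73.5 CPM after LPS, against 23.4, 24.6, 16.1, 21.3, 35.3 and 24.4 CPM after saline. The groups did not overlap; MIA LPS replicate 2 was the lowest LPS library and lay nearest to the saline range. The log2 fold change was 1.91 ± 0.24 in MIA offspring (edgeR adjusted p = 1.23e-06) and 1.76 ± 0.21 in control offspring (edgeR adjusted p = 2.58e-07). Monocytes and neutrophils carry Siglec-E as well, and their marker sums, given above, moved in the same direction; S100a8, the neutrophil marker, averaged 20.3 CPM in control LPS and 1.47 CPM in control saline libraries. Their part in the Siglece change was not tested.

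Siglec1 had the largest change of the 7 genes, with single-digit levels after saline. It stood at 113, 39.9 and 155 CPM in MIA LPS libraries, against 1.93, 0.723, 1.28, 1.31 and 4.6 CPM in MIA saline libraries. In control offspring it stood at 124, 91.4, 149.6, 101 and 80.7 CPM after LPS, against 0.903, 2.47, 3.47, 1.84, 3.03 and 1.47 CPM after saline. No LPS library came near the saline range, and MIA LPS replicate 2 was again the lowest. The log2 fold change was 5.68 ± 0.50 in MIA offspring (edgeR adjusted p = 8.59e-08) and 5.63 ± 0.44 in control offspring (edgeR adjusted p = 1.14e-08), which is 51.2-fold and 49.5-fold higher. Sialoadhesin is also a marker of macrophages at the borders of the brain, and their listed markers summed to 12 to 35.3 CPM in MIA LPS, 17 to 47.1 CPM in control LPS, 14.4 to 35.5 CPM in MIA saline and 21.0 to 59.0 CPM in control saline libraries. Mrc1, the border macrophage marker with the most counts, averaged 5.35 ± 2.47 CPM in control LPS and 22.2 ± 6.17 CPM in control saline libraries (SD, n = 5 and 6). Of 7 border macrophage markers tested in control offspring 1 rose (F13a1) and 1 fell (Mrc1), and in MIA offspring 1 rose (F13a1) and 2 fell (Mrc1 and Lyve1).

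Siglecf, best known from eosinophils and alveolar macrophages, was low in all groups and lower after LPS. It stood at 7.36, 2.17 and 2.11 CPM in MIA LPS libraries, against 9.99, 5.30, 11.1, 8.60 and 9.73 CPM in MIA saline libraries. In control offspring it stood at 3.58, 3.49, 5.71, 1.61 and 3.29 CPM after LPS, against 7.28, 9.02, 7.09, 8.98, 7.93 and 8.99 CPM after saline. The control groups did not overlap, while in MIA offspring 2 of the 3 LPS libraries lay below all saline libraries and replicate 1 lay within their range. The log2 fold change was -1.22 ± 0.36 in MIA offspring (edgeR adjusted p = 0.00895) and -1.23 ± 0.30 in control offspring (edgeR adjusted p = 0.00138). The call in MIA offspring was lost without MIA LPS replicate 2 (log2 fold change -0.94, edgeR adjusted p = 0.0549) or replicate 3 (-0.92, edgeR adjusted p = 0.0763). The eosinophil markers Prg2, Ear1, Ear6 and Il5ra had 0 counts in the 19 libraries and Epx had 2. The 1 eosinophil marker tested, Ccr3, fell in both maternal groups. It passed the expression filter only through the saline libraries, where it is high, so its call is not independent of that filter. The list of 6 summed to at most 0.145 CPM in MIA LPS, 0.481 CPM in control LPS, 1.27 CPM in MIA saline and 2.56 CPM in control saline libraries. Its part in the Siglecf change was not tested.

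Siglecg, an inhibitory receptor of B cells that binds CD24, was the lowest of the family in the LPS groups and in control saline libraries. In MIA saline libraries it averaged 1.98 CPM, beside 1.97 CPM for Siglec1. Its summed counts were 12 over 3 MIA LPS libraries, 14 over 5 control LPS libraries, 132 over 5 MIA saline libraries and 118 over 6 control saline libraries. It stood at 0, 0.868 and 0 CPM in MIA LPS libraries and 0, 0.0601, 0.623, 0.469 and 0 CPM in control LPS libraries. After saline it ranged between 1.03 and 2.89 CPM in MIA offspring and between 0.691 and 2.10 CPM in control offspring, above every LPS library of the same maternal group. The log2 fold change was -2.72 ± 0.95 in MIA offspring (edgeR adjusted p = 0.0251) and -2.59 ± 0.80 in control offspring (edgeR adjusted p = 0.00990), both with wide errors at this depth. In MIA offspring the call was lost without MIA LPS replicate 1 (-2.19, edgeR adjusted p = 0.0956) or replicate 3 (-2.12, edgeR adjusted p = 0.109). Siglecg shares 4.64% of its 50-base stretches with other annotated genes, most of them with Gm29791, which had 0 counts. The 8 listed B cell markers summed to 19 to 36.1 CPM in MIA LPS, 22.8 to 26.3 CPM in control LPS, 67.7 to 108 CPM in MIA saline and 58.5 to 91.6 CPM in control saline libraries. Nearly all of it was Ighm, which fell, and Cd79b, which was not called; its part in the Siglecg change was not tested.

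Cd22, a B cell receptor also studied in aged microglia, was not called after LPS. It stood at 5.50, 2.60 and 2.77 CPM in MIA LPS libraries, against 2.45, 5.38, 1.89, 1.10 and 2.20 CPM in MIA saline libraries. In control offspring it stood at 3.30, 6.79, 1.56, 3.02 and 3.53 CPM after LPS, against 1.81, 3.94, 2.43, 3.22, 4.49 and 6.04 CPM after saline. The groups overlapped throughout, and the log2 fold change was 0.48 in MIA offspring (95% interval -0.46 to 1.42, edgeR adjusted p = 0.440) and 0.02 in control offspring (-0.75 to 0.78, edgeR adjusted p = 0.979). The batch 2 library stood far above, at 18.5 CPM, and without the batch term Cd22 was called higher in MIA offspring (log2 fold change 1.48, edgeR adjusted p = 0.0336). The B cell gene Blk had 0 counts, Ms4a1 had 1, Pax5 had 3 and Cd79a had 18 over the 19 libraries. Cd22 shares 7.84% of its 50-base stretches with other genes, most of them with the antisense gene Gm29439, which overlaps it and had 0 counts; the labels do not state whether reads were counted by strand.

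**Figure D2:**
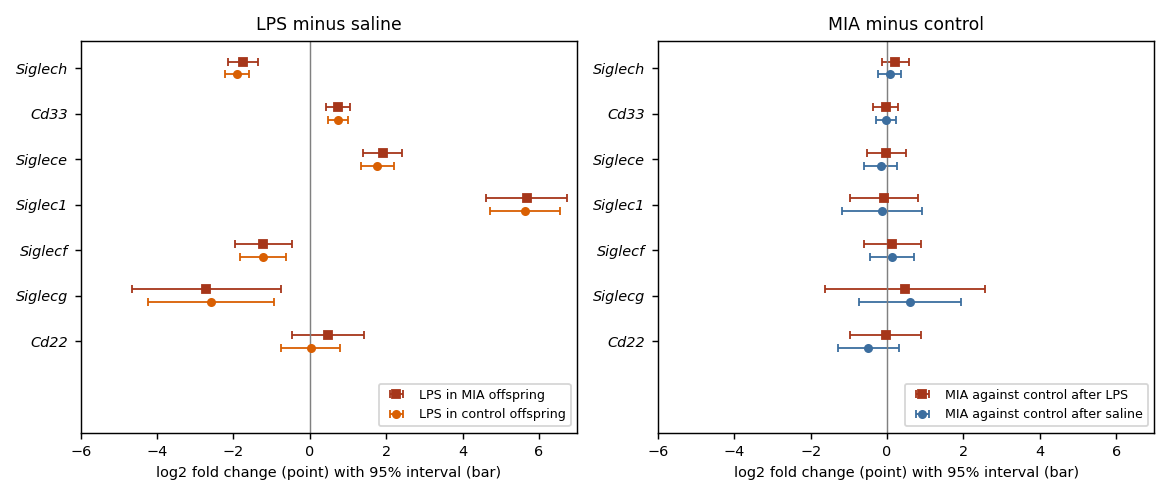
Log2 fold changes of the 7 Siglec genes with 95% intervals from the edgeR fit, for LPS minus saline in each maternal group (left) and MIA minus control under each treatment (right). In the left panel the intervals of 6 genes lie off 0 in both maternal groups, with points between -2.72 for Siglecg and 5.68 for Siglec1, and in the right panel every interval spans 0.

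MIA and control offspring were then compared, the contrast the study's title is about. None of the 7 genes was called between MIA and control offspring, and none was called for a different response to LPS. For the difference between the LPS responses, MIA minus control, the log2 values were 0.16 for Siglech (95% interval -0.31 to 0.62), -0.01 for Cd33 (-0.43 to 0.41) and 0.14 for Siglece (-0.52 to 0.81). The intervals were wider for Siglec1 (0.05, -1.32 to 1.41), Siglecf (0.01, -0.91 to 0.93), Cd22 (0.46, -0.76 to 1.68) and Siglecg (-0.13, -3.09 to 2.83). The edgeR adjusted p was 1.00 for each. The share of all 14741 genes called was 0% for this difference, with 491 genes and 0 Siglec genes at an unadjusted p under 0.05. DESeq2 called 0 genes, limma-voom with sample weights 0, and limma-voom with the shared ID number as a block 1, none of them a Siglec gene.

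Siglech averaged 264 ± 92.6 CPM in MIA LPS and 227 ± 41.9 CPM in control LPS libraries (SD, n = 3 and 5). After saline it averaged 893 ± 70.7 CPM in MIA and 853 ± 66.8 CPM in control libraries (SD, n = 5 and 6). Cd33 averaged 663 ± 139.7 CPM in MIA LPS and 679 ± 138 CPM in control LPS libraries, and 399.8 ± 12.7 CPM in MIA saline and 407 ± 30.3 CPM in control saline libraries. For all 7 genes the MIA and control ranges overlapped under both treatments. The largest of the fold changes between MIA and control after saline was that of Siglecg (log2 0.59, 95% interval -0.74 to 1.93), followed by Cd22 (-0.49, -1.28 to 0.30). After LPS, Siglecg differed by 0.47 (-1.63 to 2.57) and Siglech by 0.22 (-0.14 to 0.58). The share of all genes called by edgeR was 0% after saline, where 415 genes had an unadjusted p under 0.05, and 0% after LPS, where 825 had. No Siglec gene was among either. DESeq2 called 6 genes after saline and 0 after LPS, and both limma-voom fits called 0 in each.

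Of the 7 genes, 6 had their group means in 1 of 2 orders. For Siglech, Siglecf and Siglecg the order was MIA saline, control saline, MIA LPS and control LPS, high to low. For Cd33, Siglece and Siglec1 it was control LPS, MIA LPS, control saline and MIA saline. Within a treatment the MIA and control neighbours of these orders did not differ beyond their spread, while within a maternal group LPS and saline means differed in the tests above. For Cd22 no neighbours differed beyond their spread.

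Per kb of exon, merged over all annotated transcripts of each gene, LPS changed the make-up of the family. Siglech took 34.4% ± 9.01 of the summed Siglec CPM per kb in MIA LPS, 30.8% ± 3.04 in control LPS, 79.6% ± 1.72 in MIA saline and 78.3% ± 1.12 in control saline libraries (SD, n = 3, 5, 5 and 6). Cd33 took 37.8% ± 4.74 in MIA LPS, 40.1% ± 5.07 in control LPS, 15.6% ± 0.957 in MIA saline and 16.3% ± 1.20 in control saline libraries. Siglece took 20.1% ± 9.70 in MIA LPS, 20.9% ± 5.35 in control LPS, 3.54% ± 0.744 in MIA saline and 4.04% ± 0.921 in control saline libraries. Siglec1 took 6.62% ± 4.00 in MIA LPS and 7.23% ± 2.38 in control LPS libraries, against 0.0853% ± 0.0697 in MIA saline and 0.0968% ± 0.0468 in control saline libraries. Siglecf, Siglecg and Cd22 each averaged 0.982% or less in every group. The family as a whole summed to 224 ± 18.2 CPM per kb in MIA LPS, 216 ± 19.1 in control LPS, 331 ± 20.2 in MIA saline and 322 ± 23.7 in control saline libraries.

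The balance between the 2 DAP12-pairing receptors differed between LPS and saline libraries. Cd33 per kb over Siglech per kb ranged between 0.966 and 1.20 in MIA LPS and between 1.19 and 1.42 in control LPS libraries, against 0.175 to 0.212 in MIA saline and 0.187 to 0.232 in control saline libraries. It was above 1 in 7 of the 8 batch 1 LPS libraries and below 1 in MIA LPS replicate 2. In the batch 2 MIA LPS library Cd33 took 15.4% and Siglech 29.8% of the summed CPM per kb, so per kb Siglech stayed ahead there. The ratio is taken within a library, so it does not move with the scaling between libraries. These ratios and shares rest on the same values as the tests above and on the annotated exon lengths, which may not be those the authors counted over. The lengths, 7.771 kb for Cd33 and 3.383 kb for Siglech, merge all annotated transcripts, and the transcripts present may be shorter. Whether the ratio lies above or below 1 depends on these lengths. In CPM, Cd33 stood above Siglech in every LPS library, the batch 2 library included (235 against 198 CPM). It stood below Siglech in every saline library.

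**Figure D3:**
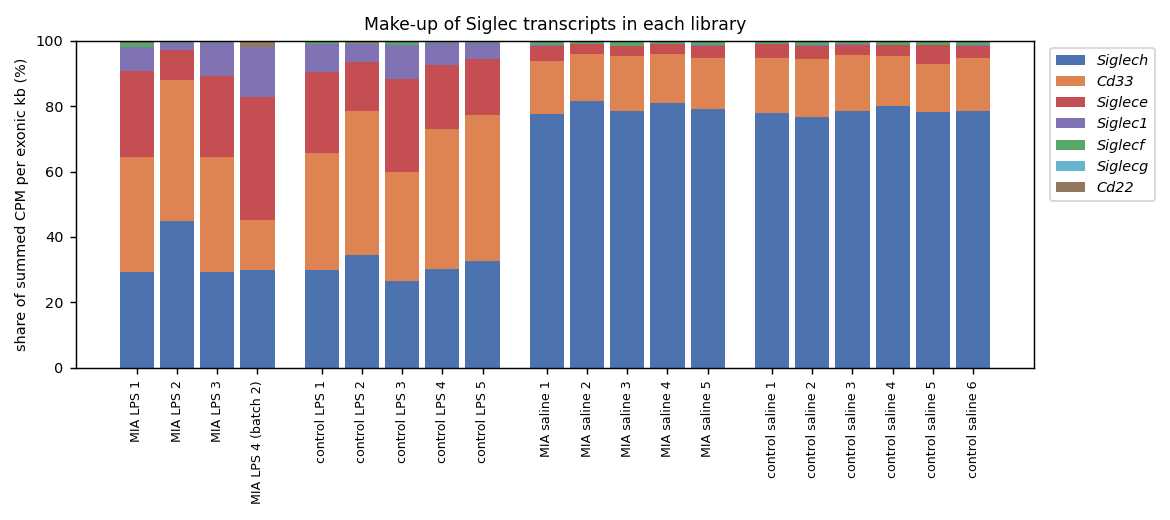
Share of each Siglec gene in the summed Siglec CPM per exonic kb (percent, stacked bars from 0 to 100), 1 bar per library, with the batch 2 library named. Siglech takes 76.6% to 81.7% in every saline library and 26.5% to 44.8% in the batch 1 LPS libraries, where Cd33, Siglece and Siglec1 take more.

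The 4 abundant genes varied among the LPS libraries. MIA LPS replicate 2 had the highest Siglech (371 CPM) and Cd33 (824 CPM) and the lowest Siglece (40.6 CPM) and Siglec1 (39.9 CPM) of the 8 batch 1 LPS libraries. Control LPS replicate 3 had the lowest Siglech (177 CPM) and Cd33 (514 CPM). The batch 2 library, outside these 8, had the highest Siglec1 (214 CPM) and Siglece (137 CPM) of the LPS libraries. MIA LPS replicate 2 also had the highest sums of astrocyte markers (225 CPM) and oligodendrocyte markers (86.1 CPM) among batch 1 LPS libraries, and the lowest sums of microglial markers other than Siglech (3438 CPM) and monocyte markers (37.7 CPM), while its neutrophil markers summed to 81.4 CPM. The part of these in its Siglec values was not tested.

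**Figure D4:**
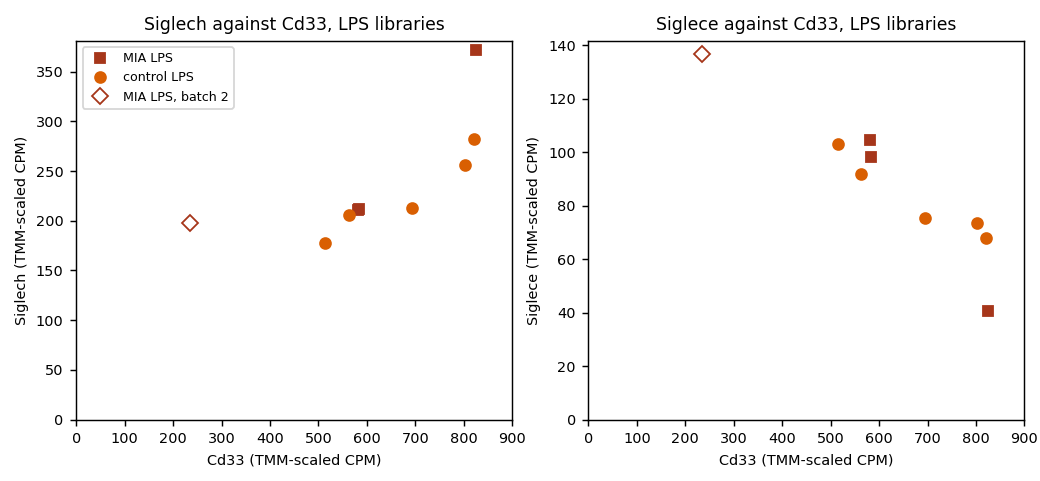
Siglech (left) and Siglece (right) against Cd33 in the LPS libraries, in TMM-scaled CPM on linear axes from 0, with squares for MIA LPS, circles for control LPS and an open diamond for the batch 2 library. Among the batch 1 libraries, those with more Cd33 had more Siglech and mostly less Siglece, between MIA LPS replicate 2 (824 CPM of Cd33) and control LPS replicate 3 (514 CPM), while the batch 2 library has the least Cd33 (235 CPM) with 198 CPM of Siglech; 2 MIA LPS points nearly coincide at 582 and 583 CPM of Cd33.

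Genes of the pathways around the receptors were read from lists, beginning with signalling. The counts stand beside the shares of all genes tested, of which 20.8% rose and 18.3% fell in MIA offspring and 23.3% rose and 21.3% fell in control offspring, and nothing is called particular to a list. Of the 7 tested activating signalling genes 3 rose and none fell with LPS in each maternal group (median log2 fold change 0.37 in MIA and 0.25 in control offspring, against 0.02 and 0.00 over all genes). Vav1 and Pik3ap1 were called in both, Plcg2 in MIA but not control offspring, and Hcst in control but not MIA offspring. Plcg2 was named after its values were seen. It changed by 0.60 ± 0.13 in MIA (edgeR adjusted p = 0.000505) and 0.25 ± 0.11 in control offspring (edgeR adjusted p = 0.0578). Tyrobp, the adaptor of Siglec-H and CD33, averaged 348 ± 25.9 CPM in MIA LPS, 353 ± 61.3 in control LPS, 358 ± 50.8 in MIA saline and 345 ± 60.5 in control saline libraries (SD, n = 3, 5, 5 and 6). Its log2 fold change was -0.04 ± 0.17 in MIA and 0.03 ± 0.14 in control offspring (edgeR adjusted p = 0.865 and 0.873), so Siglech and Cd33 changed while the adaptor's transcript was not called. Hcst, which encodes the related adaptor DAP10, had a log2 fold change of 0.46 ± 0.36 in MIA offspring (edgeR adjusted p = 0.335) and rose by 1.02 ± 0.30 in control offspring (edgeR adjusted p = 0.00740). Pik3ap1, an adaptor to PI3-kinase, rose by 0.87 ± 0.13 in MIA and 0.87 ± 0.11 in control offspring. Vav1, an exchange factor downstream of immune tyrosine kinases, rose by 0.37 ± 0.12 in MIA and 0.33 ± 0.10 in control offspring. Its call was lost under 4 settings in MIA offspring (edgeR adjusted p = 0.0512 to 0.103), among them without MIA LPS replicate 3 (log2 fold change 0.30), and without the batch term in control offspring (edgeR adjusted p = 0.125).

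Of the 11 inhibitory signalling genes 5 rose and 2 fell in both maternal groups (median log2 fold change 0.34 in MIA and 0.41 in control offspring). Of the phosphatase genes whose products bind Siglec motifs, Ptpn11 rose by 0.58 ± 0.15 in MIA and 0.62 ± 0.12 in control offspring. Ptpn6 was not called, with a log2 fold change of 0.34 ± 0.30 in MIA (edgeR adjusted p = 0.400) and 0.41 ± 0.25 in control offspring (edgeR adjusted p = 0.188); whether the 2 genes differ was not tested. Inpp5d, a lipid phosphatase, fell by 0.65 on the log2 scale in MIA and by 0.62 in control offspring, and Csk, a brake on Src-family kinases, fell by 0.86 and 0.83. Fgr, a Src-family kinase of myeloid cells, had the largest change of the list, at 6.82 ± 0.63 in MIA and 7.08 ± 0.55 in control offspring; it averaged 87.6 ± 63.9 CPM in MIA LPS, 105 ± 14.7 in control LPS, 0.773 ± 0.405 in MIA saline and 0.771 ± 0.575 in control saline libraries. Dok3, a myeloid docking protein, rose by 1.44 ± 0.18 in MIA and 1.56 ± 0.15 in control offspring, and Socs3, a feedback inhibitor of cytokine signalling, by 1.57 ± 0.20 in MIA and 1.40 ± 0.17 in control offspring. Ptpn11, Ptpn6, Inpp5d and Csk were named after their values were seen.

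Genes for the sugar that Siglecs read include the sialyltransferases, the enzymes that attach sialic acid to glycans. Of 15 tested, 3 rose and 8 fell in MIA offspring, and 2 rose and 10 fell in control offspring (median log2 fold change -1.13 and -1.28). St3gal1 rose by 3.32 ± 0.29 in MIA and 2.63 ± 0.24 in control offspring; it averaged 30.4 ± 10.5 CPM in MIA LPS, 26.6 ± 4.90 in control LPS, 3.05 ± 0.514 in MIA saline and 4.28 ± 2.12 in control saline libraries. St6gal1, which builds the sialic acid linkage that CD22 binds, changed by -2.35 ± 0.28 in MIA and -1.77 ± 0.21 in control offspring; it averaged 6.07 ± 2.08 CPM in MIA LPS, 8.69 ± 3.03 in control LPS, 30.7 ± 5.29 in MIA saline and 29.6 ± 7.60 in control saline libraries. St8sia4, a polysialic acid synthase, changed by -2.83 ± 0.30 in MIA and -2.70 ± 0.24 in control offspring. St8sia6 changed by -3.64 ± 0.69 and -3.63 ± 0.54 in the same order, at 4.06 and 4.64 CPM after saline. The edgeR adjusted p of these 4 genes was 0.000157 or lower in both maternal groups.

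**Figure D5:**
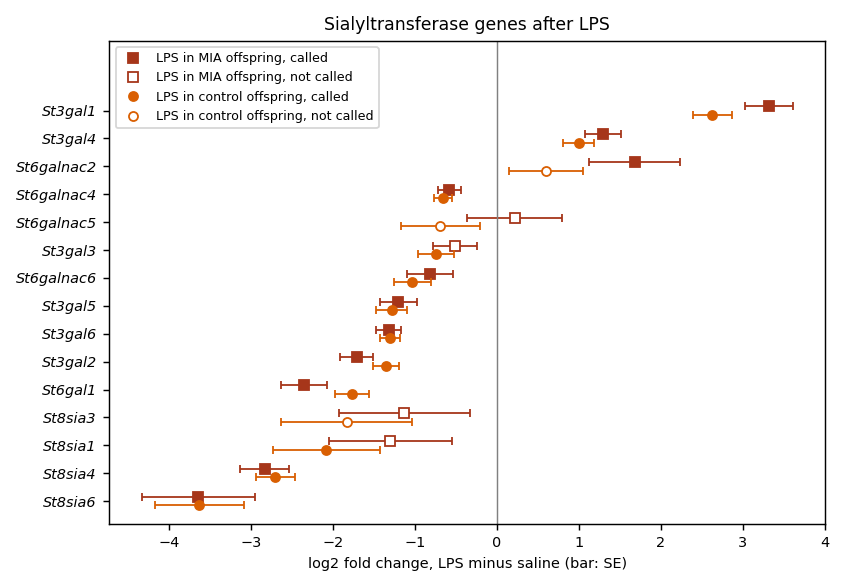
Log2 fold changes (LPS minus saline) with SE for the 15 sialyltransferase genes tested, in MIA offspring (squares) and control offspring (circles), filled where the edgeR adjusted p was under 0.05. St3gal1 at 3.32 and 2.63 stands at one end and St8sia6 at -3.64 and -3.63 at the other, with most genes to the left of 0.

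Genes that make the activated sugar and genes that remove or modify it were listed as well. Of 5 tested synthesis genes 1 rose in each maternal group: Cmas, which activates sialic acid for transfer, rose by 0.82 ± 0.19 in MIA and 0.72 ± 0.16 in control offspring. Of 7 tested sialidase and turnover genes 1 rose and 2 fell in each maternal group, 3 of 7 called where 39.1% of all genes were in MIA and 44.6% in control offspring. Neu1 rose and Casd1 fell in both, while the other gene that fell was Slc17a5 in MIA and Siae in control offspring. Slc17a5 was named after its values were seen. It changed by -0.53 ± 0.19 in MIA (edgeR adjusted p = 0.0339) and -0.12 ± 0.16 in control offspring (edgeR adjusted p = 0.555). The lysosomal sialidase gene Neu1 rose by 0.86 ± 0.17 in MIA and 0.75 ± 0.15 in control offspring. Casd1, which adds an acetyl group to sialic acid, changed by -0.95 ± 0.16 in MIA and -0.51 ± 0.13 in control offspring (edgeR adjusted p = 2.83e-05 and 0.00184). Siae, which takes such groups off, changed by -0.62 ± 0.25 in MIA (edgeR adjusted p = 0.0556) and -0.68 ± 0.21 in control offspring (edgeR adjusted p = 0.00921). Of the Siglec ligand proteins, 1 of 2 tested rose in MIA and 2 of 2 in control offspring. Spn (CD43) averaged 1.03 CPM in MIA LPS and 0.903 CPM in control LPS libraries, against 0 in MIA saline and 0.0374 CPM in control saline libraries; Cd24a, the partner of Siglec-G, averaged 1.23 and 1.11 CPM after LPS, against 0.328 and 0.152 CPM after saline, in the same order. Spn and Cd24a were named after their values were seen. The other Siglec genes of the mouse on the list are Mag, which was not called, and Siglec15, which had 0 counts. No gene of these lists was called for the difference of responses or between MIA and control offspring.

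For each of the 7 genes, the genes with the most similar pattern over the 19 batch 1 libraries were found among 6949 expressed genes, by the root mean square difference of log2 CPM after centring each gene on its own mean. Nearest to Siglech were Blnk (0.19), Prkca (0.20) and Dip2b (0.20), against a median of 1.02 over all candidates. Blnk, an adaptor of B cell and myeloid receptors, averaged 45.0 ± 11.0 CPM in MIA LPS, 34.2 ± 1.54 in control LPS, 148 ± 23.8 in MIA saline and 139 ± 15.5 in control saline libraries. Nearest to Cd33 were Nup155 (0.14), Lbr (0.14) and Peli1 (0.15), against a median of 0.48. Nearest to Siglece were Tmem106a (0.19), Shisa5 (0.22) and Snx1 (0.23), against 0.96. Nearest to Siglec1 were Ifi204 (0.51), a gene of the interferon-inducible p200 family, Ehd1 (0.55) and Hcar2 (0.57), against 2.86. Ifi204 averaged 162 ± 28.1 CPM in MIA LPS, 173 ± 20.8 in control LPS, 4.62 ± 2.00 in MIA saline and 4.88 ± 1.57 in control saline libraries. Nearest to Siglecf were Nlrp1b (0.34), Dock4 (0.35) and Plekhn1 (0.38), against 0.87, and nearest to Siglecg were Abcb4 (0.79), Cd180 (0.82) and Epn2 (0.82), against 1.57. Nearest to Cd22 were Eif4e3 (0.47), Tmem229b (0.49) and Zfp410 (0.50), against 0.73. A gene that did not vary would stand 0.65 from Cd22, which is the SD of Cd22 itself on this scale. Among the 7 genes themselves, Cd33 and Cd22 (0.65) and Siglech and Siglecf (0.66) were nearest, and Siglec1 and Siglecg (4.19) were farthest apart. The value for Cd33 and Cd22 equals the SD of Cd22 alone, so it does not show a shared pattern. The value for Siglech and Siglecf lies below their own SDs of 0.96 and 0.81. Both genes fell with LPS over these same libraries, so the value does not show a shared pattern beyond that fall.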

How the data were processed

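The 20 libraries were analysed from the table of estimated counts per gene that the authors deposited; the submitters' processing notes name STAR, RSEM and DESeq2 with no versions, and the labels state no build or annotation. Of all values, 6.27% were not whole, and counts were rounded. The RNA was reverse transcribed from oligo-dT with a Smart-Seq2 type protocol, per the labels' protocols, with no molecular identifiers, so PCR copies were counted. Symbols were matched for 55141 of 55487 identifiers. edgeR 4.0.16 (R 4.3.3) fitted all 4 groups with TMM scaling, batch as a term and robust quasi-likelihood tests, after its filter at a minimum count of 10 (14741 genes kept, 15 residual degrees of freedom). CPM values are TMM-scaled. A call is an adjusted p under 0.05. The tests were tried on simulated data. Replicate numbers did not pair the libraries. No pair of replicates agreed within sampling noise. Named list genes are up to 4 per list, called in control offspring, largest change first, at a mean log2 CPM of at least 1; 1 such gene is not reported here. Members and lists were chosen with earlier results of these data known. Alternatives were other scalings, DESeq2 1.42.0, limma 3.58.1, other filters, no batch term, the excluded library kept in, ribosomal RNA left out, only the compared groups, blocks, and each library left out.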

Additional observations from a re-analysis of the deposited data

Results flagged for a closer look

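Siglece in MIA saline replicate 1 stood at 29.3 CPM, apart from the other 4 MIA saline libraries (18.3 to 21.2 CPM), with a gap of 0.737 of the group's range. Of 24 groups of 4 to 10 libraries looked at, this was the 1 that stood out, and chance gives about 1 in 20. The MIA saline library that the submitters titled excluded, which entered no comparison, had 1001 CPM of Siglech, 461 CPM of Cd33 and 3.08 CPM of Siglecg, each above the highest control saline library (941, 446 and 2.10 CPM). That library had the fewest reads, 5.29 M.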

How the results depend on the processing

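No fold change of a Siglec gene that was called turned its direction under any alternative run. In control offspring 6 Siglec genes were called under every alternative except a minimum count of 50, where Siglecg was not tested and 5 were called. In MIA offspring the number was 6 under the other settings, 5 at that filter, and 4 to 6 when 1 library was left out, with Siglecf and Siglecg the genes lost in these leave-out runs. The 6 were not always the same genes: without the batch term Cd33 was lost and Cd22 was called higher. Between MIA and control offspring, and for the difference of responses, it was 0 under all of them. Over all genes, leaving out MIA LPS replicate 1 gave 2 genes called for the difference of responses and 4 between MIA and control offspring after LPS, leaving out MIA LPS replicate 3 gave 3 after LPS, and leaving out control saline replicate 4 gave 1 for the difference. The replicate numbers of the titles do not pair the libraries: the correlation of deviations over 24 same-numbered pairs ranged from -0.14 to 0.22 with a median of 0.03, and 7 of 19 libraries correlated best with their own number. With the replicate block, edgeR called 6 Siglec genes after LPS in each maternal group, 0 in the other 3 comparisons, and 5540 of all genes in MIA and 6295 in control offspring. With the number shared within the ID label as a block the consensus correlation was 0.08. Among list genes, 2 rather than 1 of the synthesis genes were called in control offspring under some settings, the ligand proteins called varied between 0 and 2, Siae in MIA offspring was called under 12 other settings, and Vav1 was lost under 4 in MIA offspring and 1 in control offspring. Leaving ribosomal RNA out of the library size set the Siglech mean at 476 CPM in control LPS and 1777 CPM in control saline libraries, while the number of Siglec genes called was 6 in both LPS comparisons. Depth limits Siglecg, Siglecf and Cd22, and 3 MIA LPS libraries limit the comparisons with MIA.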

Other observations

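Among the 8 batch 1 LPS libraries, the levels of the 4 abundant Siglec genes were related, a pattern noticed in these values and so given as a description with no test. Over log2 CPM, Siglech and Cd33 had a Pearson r of 0.87 and a Spearman rho of 1.00, and Siglece and Siglec1 had an r of 0.95 and a rho of 0.81. Siglech ran against Siglece (r -0.94, rho -0.88) and Siglec1 (r -0.93, rho -0.83), and Cd33 against Siglece (r -0.83, rho -0.88) and Siglec1 (r -0.81, rho -0.83). Without the 2 libraries farthest from the median of the gene named before the other in each pair, r was 0.91 for Siglech and Cd33, 0.94 for Siglece and Siglec1, -0.71 for Siglech and Siglece, -0.81 for Siglech and Siglec1, -0.91 for Cd33 and Siglece and -0.90 for Cd33 and Siglec1 over 6 libraries. The 8 libraries join 3 MIA LPS and 5 control LPS libraries, too few in each for a value of its own, and each library's values share 1 scaling factor. The batch 2 library, outside these 8, had less Cd33 (235 CPM) than any of them and more Siglech (198 CPM) than control LPS replicate 3 (177 CPM). Over the 11 saline libraries r for the 6 pairs lay between -0.45 and 0.21. Whether the relations differ between LPS and saline libraries was not tested.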
